A study of Mus musculus with 2 samples.

Results

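The forkhead genes of the newborn mouse stomach were taken as all protein-coding genes whose GENCODE symbol is Fox, a letter from a to s and a number. Foxa1, Foxa2, Foxa3, Foxf1, Foxf2 and Foxd3 were left out of the set. This gave 38 genes of the 21474 protein-coding genes with a symbol, and the rule itself uses no measured value, though it was written with earlier results of these data known. The study sequenced total RNA of the whole stomach of 2 pups of strain B6NCrl on the day of birth (day 0), 1 library per pup, with no treatment. Both pups came from 1 pregnant female, and their sex was not collected. The pups form 1 group and are called pup 1 and pup 2 after the labels. Libraries were made from 10 ng of RNA above 200 nucleotides and held 51524479 and 49983574 expected counts, which are estimated reads. Levels are TPM, a measure of transcript number that the authors scaled for length and depth, each with the credibility interval that the authors deposited. All 12 genes chosen to check the tissue were present in both libraries, among them the chymosin gene Cym, the pepsinogen gene Pga5 and the trefoil gene Tff1, at mean TPM of 62300, 19590 and 12950.

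Forkhead proteins bind DNA through a winged helix domain, in which 1 helix, the recognition helix, enters the major groove. Subfamilies are named by letter and differ both within and outside this domain. FOXP proteins repress transcription as dimers, FOXO proteins are driven out of the nucleus by the insulin and AKT pathway, and FOXM1 drives mitotic genes. Some single members mark a cell type, such as FOXJ1 in cells with motile cilia. In the gut, FOXL1 marks mesenchymal cells beneath the epithelium and FOXQ1 acts in the mucous cells that line the stomach.

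The codons of the recognition helix show what unites the set and how far members differ in the RNA that was counted. They are read from GENCODE M21 transcripts on build mm10, over 10 codons, and the capitals mark the arginine and histidine codons. The lines give Foxq1, which had the highest mean level, and 1 gene from each of several other subfamilies.
Foxq1 (chr13:31559397-31559426, plus strand): aactccgtgCGCCACaacctctcgctcaac
Foxn3 (chr12:99388397-99388426, minus strand): aactcagtgAGACACaacttgtcattgaat
Foxo3 (chr10:42197872-42197901, minus strand): aactccatcCGGCACaacctgtccctgcac
Foxj3 (chr4:119585750-119585779, plus strand): aattctataCGACATaatctgtcactgaac
Foxm1 (chr6:128370957-128370986, plus strand): aactctattCGTCACaacctttctctccat
Foxk2 (chr11:121296029-121296058, plus strand): aattcaattCGCCACaatctctctctgaac
Foxl1 (chr8:121128244-121128273, plus strand): aacagcatcCGCCACaacctgtcgctcaac
The search was for codons of asparagine, any residue, isoleucine or valine, arginine, histidine, asparagine and leucine. It found 1 such place in 34 of the 38 genes, and the 34 runs of codons comprised 32 different sequences. No other pattern was searched in the 4 genes without a match, so a miss does not show that the helix is absent. The 16 genes detected in the stomach had runs that differed from each other, but the run of Foxl1 was also that of Foxd4, which was not detected. Over all 703 pairs of the set, 0 pairs shared a stretch of 100 or more identical bases, and the longest stretch between 2 detected genes was 38 bases. The effective lengths in the deposited tables, length minus 99, are those of reads of 100 bases, so no read of that length lay wholly within a shared stretch of these transcripts. Expected counts were whole numbers, within 0.005, in both pups for 30 of the 38 genes, but 5 of these had no count in either pup. The genes with fractional counts were Foxq1, Foxp1, Foxn2, Foxm1, Foxo1, Foxj2, Foxl1 and Foxp3, all detected except Foxp3. They include the genes with the highest mean levels, Foxq1 (5823.12 and 7365.31 counts) and Foxp1 (6858.26 and 6825.4).

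The limit of detection was set at 1 TPM, to be reached in each of the 2 pups. By this limit 16 of the 38 forkhead genes (42.1%) were detected, beside 61.2% of all protein-coding genes. The median TPM of the 38 genes was 0.290 in pup 1 and 0.405 in pup 2, beside 3.49 and 3.64 over all protein-coding genes. Among detected genes only, the medians were 5.48 and 5.55 for forkhead genes and 12.9 and 13.2 for all protein-coding genes. The 3 highest, Foxq1, Foxp1 and Foxn3, together held 69.1% of the summed TPM of the set in pup 1 and 70.2% in pup 2. The 22 genes below the limit held 1.17% and 1.30%.

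**Figure D1:**
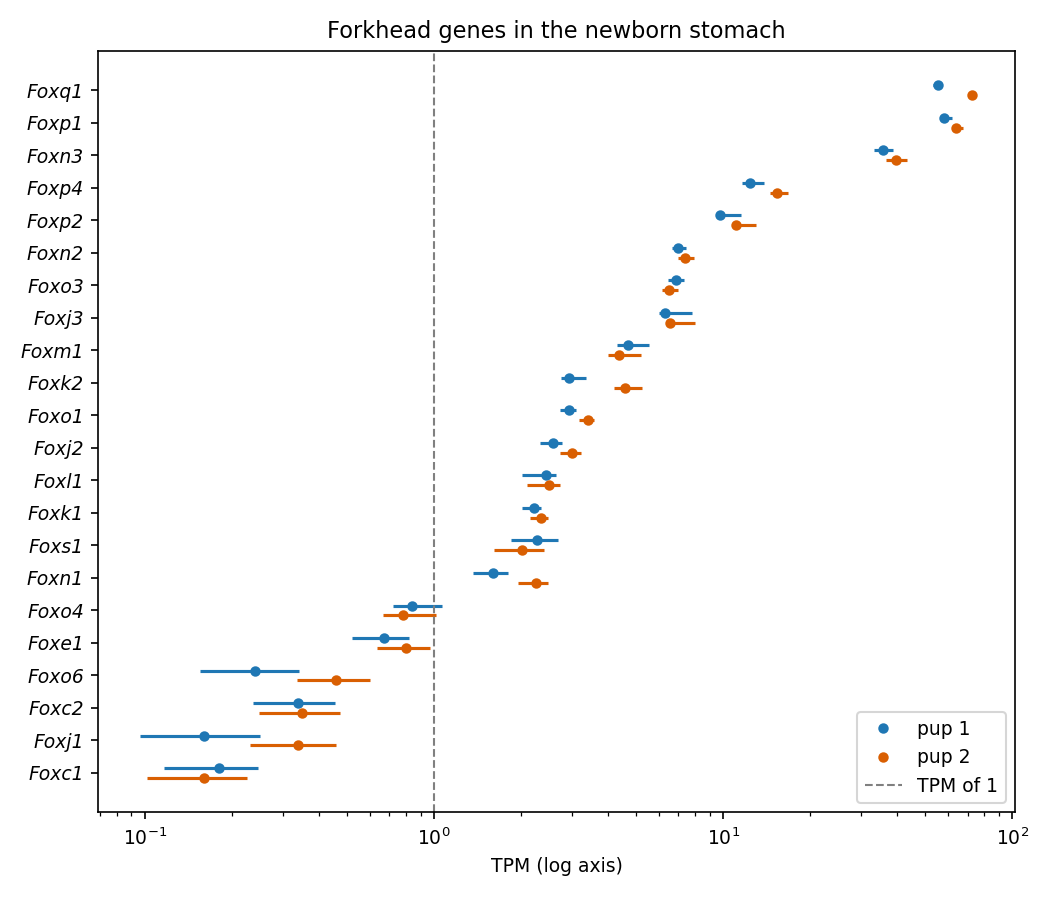
TPM (log axis) of the 22 forkhead genes with a mean TPM of at least 0.1, with a point for each pup and a line for the deposited credibility interval. The 16 genes from Foxq1 to Foxn1 lie above the dashed line at a TPM of 1 in both pups.

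The subfamilies were also divided into 2 groups, a division that was not among the planned results and may follow from the values themselves. In the Foxj, Foxk, Foxm, Foxn, Foxo and Foxp subfamilies, 13 of 18 genes were detected. In all other subfamilies of the set, 3 of 20 were, namely Foxq1, Foxl1 and Foxs1. The 2 groups also differ in structure, since every gene whose longest coding transcript has a single exon lies in the second group. Of the 13 single-exon genes, 3 were detected, and of the 25 genes with several exons, 13 were. Detection by number of exons was not counted over all protein-coding genes, so these shares have no background beside them. These are counts without a test.

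The gene with the highest mean over the 2 pups was Foxq1 (chr13:31556134-31560976), above Foxp1 in pup 2 and below it in pup 1. It is a single-exon gene known for its part in mucin production by gastric surface cells and in hair structure. Pup 1 had 5823 counts of it, or 55.1 TPM, and pup 2 had 7365, or 72.6 TPM. Pup 2 lay higher, and the deposited intervals, 53.0 to 55.8 and 69.9 to 73.2, did not overlap. Its share of the library's counts was 1.30 times higher in pup 2 (95% exact binomial interval 1.26 to 1.35, which covers counting error only). The surface mucous genes were abundant in both libraries, with Tff1 at 12874 and 13022, Gkn2 at 5460 and 5341 and Gkn1 at 2884 and 2809. Of the 6 genes on that list, all were detected, 4 lay higher in pup 2 and 2 lower, and the median log2 ratio of pup 2 over pup 1 was 0.04, beside 0.39 for Foxq1. These log2 ratios are of TPM + 1 throughout, a scale on which weakly expressed genes appear to differ less than they do. The mucin gene Muc5ac, which is known to depend on Foxq1 in the mouse stomach, stood at a TPM of 2.51 and 2.89. A gene on the other strand, A530084C06Rik, overlaps Foxq1 and had 193 and 252 counts. No source used here gives the strandedness. The deposited counts of both genes were fractional, 5823.12 and 192.88 in pup 1, and added up to a whole number in each pup. That is how counts look where reads were divided between overlapping genes. Reads of the overlap cannot be assigned to 1 of the genes. In these bulk samples more cells of a type and more RNA per cell cannot be told apart.

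FOXP proteins carry a zinc finger and a leucine zipper beside the forkhead domain, and their 4 genes held 37.3% and 36.0% of the summed forkhead TPM in pups 1 and 2. Foxp1 (chr6, minus strand), which acts in lung, gut and immune development, stood at 58.1 and 63.8 TPM with 6858 and 6825 counts. The intervals of the pups overlapped. Foxp4, which works with Foxp1 and Foxp2 in foregut derivatives, had a TPM of 12.4 and 15.3, and its intervals did not overlap between pups. Foxp2, known for its roles in brain and lung, had 9.78 and 11.1 with overlapping intervals, and in both pups the TPM lay just below its own deposited interval, which in pup 1 was 9.87 to 11.5. Foxp3, the defining gene of regulatory T cells, had 1.16 and 2.46 counts, which is under the floor of 3 counts that a count of 0 allows. Beside it, the T cell genes Tnfrsf18, Ikzf2 and Lck stood at a TPM of 2.95, 2.03 and 1.61 in pup 1 and 1.88, 2.18 and 1.45 in pup 2. The T cell receptor chain genes Cd3d, Cd3e and Cd3g stayed at or below 0.32. Of the 11 genes of this list, 4 were detected, 1 higher and 3 lower in pup 2, and their median log2 ratio was -0.11.

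Corepressors that act with FOXP proteins were present throughout. All 10 listed genes were detected, led by Ctbp1, Hdac1 and Ncor1 at mean TPM of 108 ± 0.396, 94.9 ± 0.0636 and 71.2 ± 1.56 (SD, n = 2). The median log2 ratio of this list was 0.03, with 6 genes higher and 4 lower in pup 2. The median over all detected protein-coding genes was also 0.03.

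The order of the first genes rests on transcript models. Foxp1 has 32 transcripts in the deposited tables, and its TPM sums many short ones. Foxp1-225, of 1848 bases, held 35.6% and 39.8% of the gene's TPM but 21.8% and 25.9% of its counts. Foxp1-204, of 7177 bases, held 25.2% and 17.9% of the TPM and 62.6% and 47.1% of the counts. When all counts of a gene were divided by the effective length of its longest transcript, an alternative chosen after the data were seen, Foxp1 stood at 23.4 and 24.3. Its deposited level was 2.48 and 2.63 times as high. Foxn3 then stood at 23.7 in both pups, and Foxq1, with 1 transcript, kept 55.1 and 72.6. As deposited, Foxp1 was above Foxq1 in pup 1 and below it in pup 2, with intervals apart in each pup. By the longest transcript Foxq1 was above Foxp1 in both pups.

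**Figure D2:**
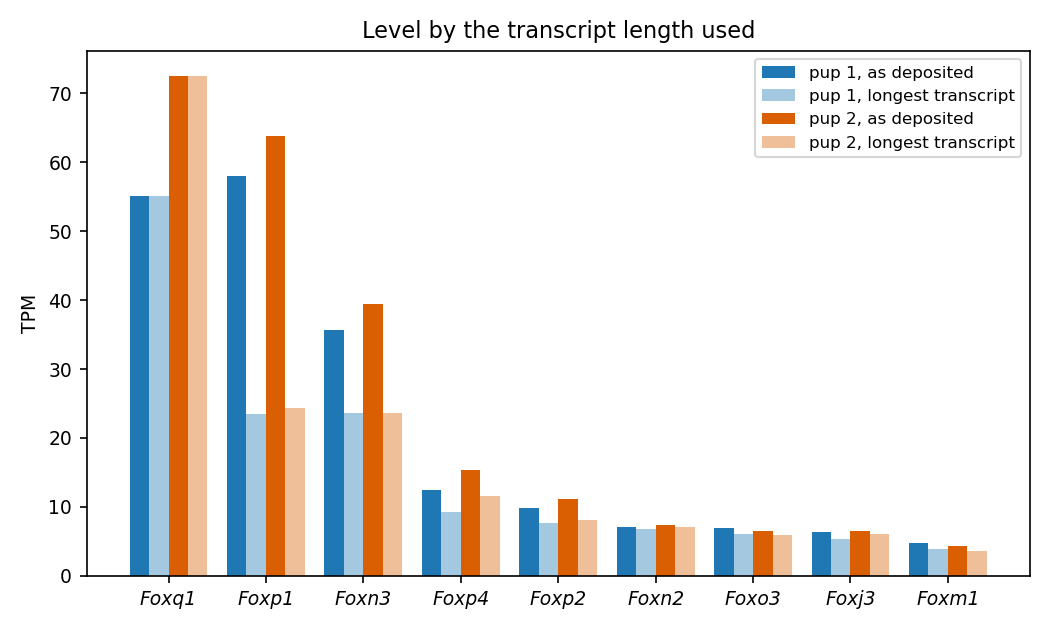
TPM of the 9 highest forkhead genes in each pup, as deposited (dark bars) and with all counts divided by the effective length of the longest transcript (pale bars). Foxp1 drops from 58.1 and 63.8 to 23.4 and 24.3, while Foxq1 does not move.

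Foxn3 (chr12, minus strand), a repressor linked to the DNA damage checkpoint, was the highest of the Foxn genes. It stood at 35.7 and 39.4 TPM with 2724 and 2618 counts in pups 1 and 2. The TPM was higher in pup 2 and the count lower, and the intervals of the pups overlapped. Its short transcript Foxn3-205, of 566 bases, held 32.2% and 31.5% of the TPM but 8.13% and 8.79% of the counts. Foxn2, its close relative, had a TPM of 7.0 and 7.36. Foxn1, the factor of thymic epithelium that also acts in keratinocytes of the skin, stood at 1.60 TPM (206 counts) in pup 1 and 2.25 TPM (278 counts) in pup 2, and its intervals did not overlap. Thymic epithelium was checked with 5 genes, of which 3 were detected with a median log2 ratio of 0.02, and Psmb11, the thymoproteasome subunit, stood at 0.0100 and 0.0200. The chemokine gene Ccl25, which gut epithelium also expresses, had 3.36 and 2.50, the Notch ligand gene Dll4 had 3.15 and 3.21, and Cd83 had 1.87 and 2.54. The squamous keratin genes Krt5 and Krt13 stood at 433 and 2408 in pup 1 and 479 and 2743 in pup 2. Their part in the Foxn1 value was not tested. Foxn4 had 1 count in pup 1 and 0 in pup 2.

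Of the FOXO genes, whose products switch on stress resistance and cell cycle exit when insulin signalling is low, 2 of 4 were detected. Foxo3 had 6.85 and 6.51 TPM, and Foxo1 had 2.94 and 3.42. The intervals of Foxo1 did not overlap between pups and those of Foxo3 did. An antisense gene, Gm20402, overlaps Foxo1 and had 72.4 and 83.3 counts, beside 1042 and 1163 for Foxo1. Here too the counts of both genes were fractional and added up to a whole number in each pup. Foxo4 was just under the limit at 0.840 and 0.780. Foxo6, a FOXO factor best known from brain, had 25 counts and then 46, a TPM of 0.240 and 0.460.

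The genes that act on FOXO proteins were all detected, 19 of the 19 found, with 8 higher and 11 lower in pup 2 and a median log2 ratio of -0.03. The 14-3-3 genes Ywhaz, Ywhaq and Ywhae, whose products hold phosphorylated FOXO in the cytoplasm, led at mean TPM of 496 ± 8.31, 388 ± 9.36 and 351 ± 9.19 (SD, n = 2). The kinase gene Akt1 had a mean of 78.3 ± 8.27. Of the 19 known FOXO target genes, 15 were detected, led by Txnip (238 and 234), the superoxide dismutase gene Sod2 (43.9 and 45.6) and the catalase gene Cat (36.3 and 46.4). Among the detected targets 9 were higher and 6 lower in pup 2, with a median log2 ratio of 0.06. The liver enzyme genes G6pc and Pck1, classic FOXO1 targets of hepatocytes, stayed below the limit, at 0.230 and 0.510 in pup 1 and 0.300 and 0.600 in pup 2.

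Foxm1, which is made in dividing cells and drives genes of mitosis, had 700 counts (4.67 TPM) in pup 1 and 619 counts (4.35 TPM) in pup 2. Its share of the counts in pup 2 was 0.912 times that in pup 1 (95% exact interval 0.817 to 1.02), and its intervals overlapped. The mitotic genes known as its targets were all detected, 16 of 16, and 15 were lower in pup 2. Ube2c stood at 89.3 and 63.6, the survivin gene Birc5 at 78.7 and 57.5 and the centromere histone gene Cenpa at 59.9 and 45.4. Intervals lay apart in the lower direction for 14 of the 16, which is a property of 8.33% of all genes with enough counts. None of the 16 reached 2-fold. The exception in direction was the phosphatase gene Cdc25b, at 33.2 and 33.9. The median log2 ratio of the list was -0.37, beside -0.08 for Foxm1 itself, whose interval includes 1. Lower levels of cell cycle genes in pup 2 were already known from these data, and the list does not add independent support.

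**Figure D3:**
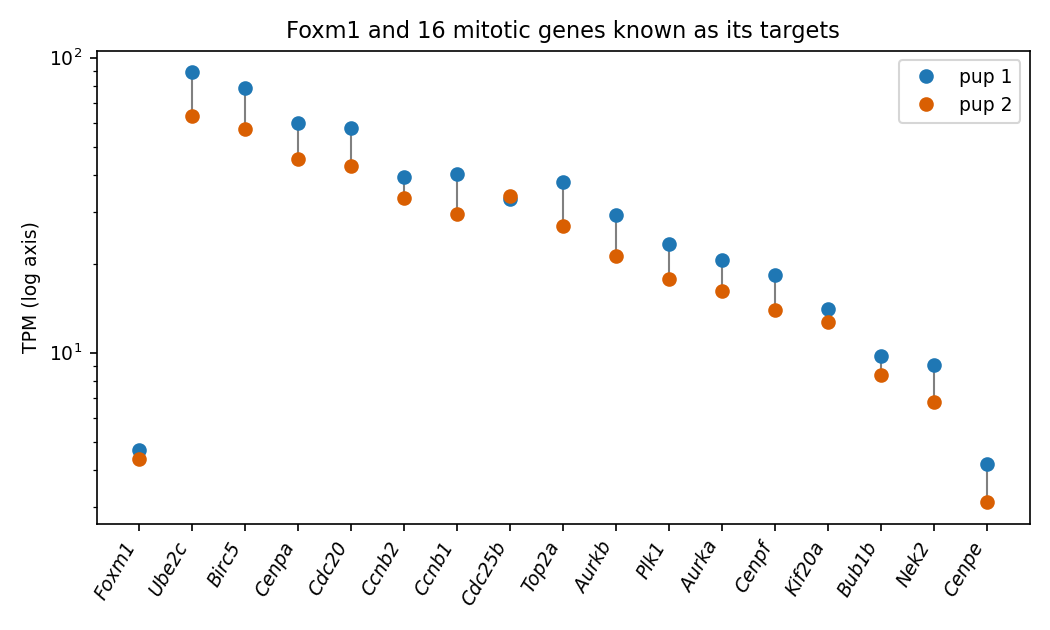
TPM (log axis) of Foxm1 and of 16 mitotic genes known as its targets, with a point for each pup joined by a line. In 15 of the 16 target genes the point of pup 2 lies below that of pup 1, and the points of Foxm1 lie close together at 4.67 and 4.35.

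Among the broadly expressed Foxj and Foxk genes, Foxj3 had 6.29 and 6.54 TPM, and Foxj2 had 2.58 and 3.01. Foxk1 and Foxk2, regulators of autophagy and of sugar metabolism, stood at 2.21 and 2.34 and at 2.93 and 4.58. Foxk2 showed the largest difference between pups of all detected forkhead genes on the TPM scale, 1.56-fold, and its intervals of 2.74 to 3.36 and 4.2 to 5.22 did not overlap. By counts the ratio was 1.44 (95% exact interval 1.30 to 1.60). Part of the TPM of pup 2 sat in Foxk2-203, a noncoding transcript of 452 bases that held 7.38% of the gene's TPM with 4.74 counts. The coding transcript Foxk2-201 alone had 2.93 and 4.24, with intervals apart. Genes for proteins that bind FOXK were all detected, 10 of 10, led by Sin3b at 168 and 159, Ogt at 35.0 and 41.1 and the deubiquitinase gene Bap1 at 19.3 and 21.0. Of these, 7 were higher and 3 lower in pup 2, and their median log2 ratio was 0.09.

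Foxj1, the switch for motile cilia, had 17 counts in pup 1 and 34 in pup 2, a TPM of 0.160 and 0.340, and is named although it fell outside the rule for named genes. Genes of motile cilia were mostly low, with 5 of 20 detected, 3 higher and 2 lower in pup 2, and a median log2 ratio of 0.05. Rsph9, Dnaic1 and Tekt2 led at 11.2, 5.25 and 3.08 in pup 1 and 11.7, 5.65 and 3.33 in pup 2. The axonemal dynein genes Dnah5, Dnah9 and Dnah11 stood at or below 0.30 in both pups.

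Of the forkhead genes of mesenchyme and vessels, Foxl1 and Foxs1 were detected. Foxl1 (chr8:121127940-121130644) had a TPM of 2.44 and 2.50, and Foxs1, a gene of pericytes and neural crest cells, had 2.27 and 2.01. Both pairs of intervals overlapped between pups. The genes listed for the cells around Foxl1 were all detected, 13 of 13, with the ligand genes Bmp2 and Bmp4 at 26.8 and 17.5 in pup 1 and 25.2 and 17.4 in pup 2 and the tissue factor gene F3 at 22.6 and 24.5. Of the list, 7 were higher and 6 lower in pup 2, with a median log2 ratio of 0.004. Foxc2 lies 9.04 kb before Foxl1 on the same strand and had 37 counts in each pup, a TPM of 0.340 and 0.350. A read-through gene, Gm20388, covers both and was given 70.1 counts in pup 1 and 0 in pup 2. Foxc1, which lies 246 kb from Foxq1 on chromosome 13, had a TPM of 0.180 and 0.160 from 28 and 24 counts. Foxc1 and Foxc2 act in vessels and lymphatics, and the endothelial list had 9 of 10 genes detected, led by Pdpn (30.9 and 23.6), Ccl21a (27.1 and 26.7, uncertain because near-identical copies share its reads) and Lyve1 (10.6 and 7.99), with 3 higher and 6 lower in pup 2 and a median log2 ratio of -0.03. Prox1, the lymphatic master factor, stood at 0.340 and 0.460.

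Foxe1, known from thyroid, palate and the upper gut, had 75 counts (0.670 TPM) in pup 1 and 86 (0.800 TPM) in pup 2. Of the 6 thyroid genes, only Slc5a5, the iodide transporter that gastric mucous cells also express, was detected, at 36.8 and 50.2 (a log2 ratio of 0.44), while Tshr and Tg stood at or below 0.280 and Nkx2-1 at 0 and 0.0200. The remaining genes are factors of other organs, and 16 genes of the set had a mean TPM under 0.1. The Foxi genes, among them Foxi1 of ionocytes, had 0 counts in pup 1 and 1 count at most in pup 2. Of the 8 ionocyte genes, 3 were detected with a median log2 ratio of 0.05, namely the proton pump subunit genes Atp6v1c2 (13.95 and 12.5) and Atp6v0a4 (9.89 and 11.6) and Dmrt2 (1.04 and 1.11), which is named after its values were seen. Atp6v0d2, another subunit gene, had 1.37 and 0.830 and missed the limit in pup 2. Foxl2 of the ovary, Foxe3 of the lens, Foxh1 of Nodal signalling, Foxi1 and Foxb2 had no count in either pup. Of 5 gonadal genes 2 were detected, both higher in pup 2, with a median log2 ratio of 0.15. Amh stood at 5.82 and 5.91, Inha at 4.08 and 5.21 and Amhr2 at 0.360 and 0.690. In the Nodal list 5 of 9 genes found were detected, 3 higher and 1 lower in pup 2 with a median log2 ratio of 0.15, with Smad2 at 21.3 and 19.6 and Smad4 at 10.3 and 15.8, while Nodal itself was at 0.0200 and 0.0400. Of 6 forebrain genes, 1 was detected, Dlx2 at 1.08 and 1.16 (a log2 ratio of 0.05). Neurod6 and Emx2 followed at or below 0.10.

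The counts of the lowest genes differed between the pups. The 16 genes with a mean TPM under 0.1 together had 6.16 counts in pup 1 and 30.5 in pup 2, a ratio of shares of 5.15 (95% exact interval 2.11 to 15.2, counting error only). In pup 1, 4 of the 16 had a count, and in pup 2, 10 of them did. Chemosensory receptor genes, which are largely silent outside sensory tissue, moved with them: 1393 such genes had 200.0 counts in pup 1 and 510 in pup 2, a ratio of 2.63 (2.23 to 3.11). For the low but counted genes, the ratio was 2.06 for Foxj1 (1.12 to 3.94), 1.90 for Foxo6 (1.14 to 3.22), 1.18 for Foxe1 (0.857 to 1.63), 1.03 for Foxc2 (0.636 to 1.67) and 0.884 for Foxc1 (0.490 to 1.58). The part of this difference between libraries in the values of Foxj1 and Foxo6 was not tested.

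With 1 library per pup, the comparison of pups is one of 2 libraries, so that it has no replicate check and no p-value. Most forkhead genes stood close, with 15 of the 16 detected members differing by under 1.5-fold, beside 97.9% of all detected protein-coding genes. The exception was Foxk2. A gene was said to differ where it had a mean count of at least 100, the intervals did not overlap and the TPM differed at least 2-fold. No forkhead gene of the 17 with enough counts met this in either direction, beside 0.302% of all 13891 such genes higher and 0.122% lower in pup 2. With no limit on the fold, a rule added after the data were seen, 5 forkhead genes were higher in pup 2 and 0 lower, beside 12.8% and 8.33% of all genes. The 5 were Foxq1, Foxp4, Foxk2, Foxo1 and Foxn1. The median log2 ratio of the detected forkhead genes was 0.14, beside 0.03 over all detected protein-coding genes, and 13 of 16 were higher in pup 2 beside 58.3% of all. By TMM-scaled CPM (counts scaled for library size), the median was 0.05.

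**Figure D4:**
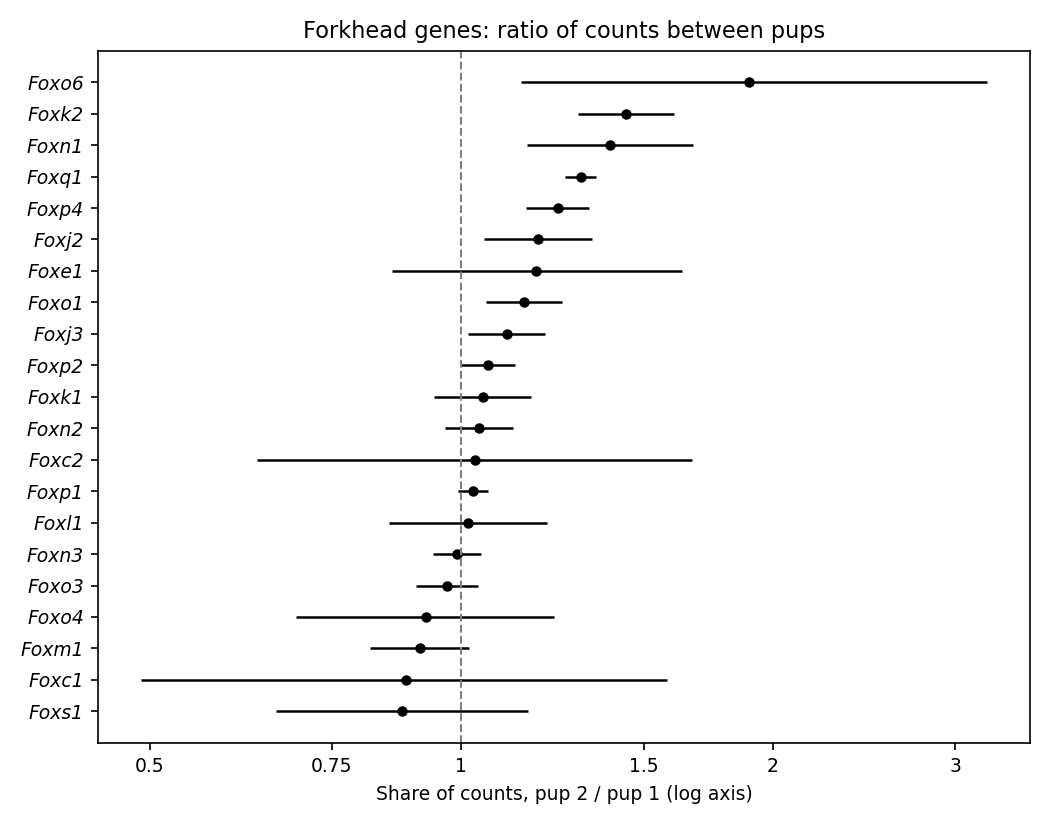
Ratio of the share of counts in pup 2 to that in pup 1 (log axis) for the 21 forkhead genes that were detected or had at least 20 counts in each pup, with 95% exact binomial intervals that cover counting error only. The intervals of Foxq1, Foxp4, Foxk2, Foxo1 and Foxn1, among others, lie to the right of the line at 1.

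Liver genes were also higher in pup 2 in these libraries, 7 of 7 detected, at mean TPM of 58.8 for Ttr, 34.1 for Ahsg and 34.0 for Afp, with a median log2 ratio of 0.80. Of these, Afp (20.8 and 47.2) and Fgb (2.38 and 5.21) differed at least 2-fold. Of 5 lung genes 2 were detected, both lower in pup 2, with a median log2 ratio of -0.18. The lung genes Scgb1a1, Ager and Sftpc stood at 10.8, 1.57 and 0.340 in pup 1 and 9.28, 1.31 and 0.390 in pup 2. The part of either tissue in the forkhead values was not tested.

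In the order of levels, 5 of the 15 neighbouring pairs among the 16 detected genes were apart in both pups, with the same order and intervals that did not overlap within a pup. These were Foxp1 over Foxn3, Foxn3 over Foxp4, Foxp4 over Foxp2, Foxp2 over Foxn2, and Foxj3 over Foxm1. The first of these orders was lost with the longest transcript length, at 23.4 and 24.3 for Foxp1 and 23.7 in both pups for Foxn3. From Foxk2 down to Foxn1 no neighbouring pair was apart in both pups.

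Of the 16 detected genes, 6 had 1 transcript in the deposited tables and 10 had several. By share of the gene's TPM, the same transcript led in both pups in 6 of these 10, and in Foxj2, Foxj3, Foxn3 and Foxp4 another led. By share of counts, Foxj2-201 (52.6% and 70.5%) and Foxn3-209 (49.2% and 46.4%) led in both pups. The shares are the authors' estimates, and where transcripts differ little the estimate is uncertain. Foxp4-202 stood at 3.75 TPM in pup 1 and 7.96 TPM in pup 2, with intervals apart, and Foxp4-204 had 4.46 and 3.25, with overlapping intervals. Foxp4-202 has 3 coding bases at chr17:47878495-47878497 that Foxp4-204 lacks, and coding bases only in Foxp4-204 were not searched for. The transcripts also differ in length, at 3198 bases for Foxp4-202 and 3999 for Foxp4-204. Transcripts with the 3 bases held 53.9% of the TPM of transcripts across that place in pup 1 and 76.1% in pup 2.

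**Figure D5:**
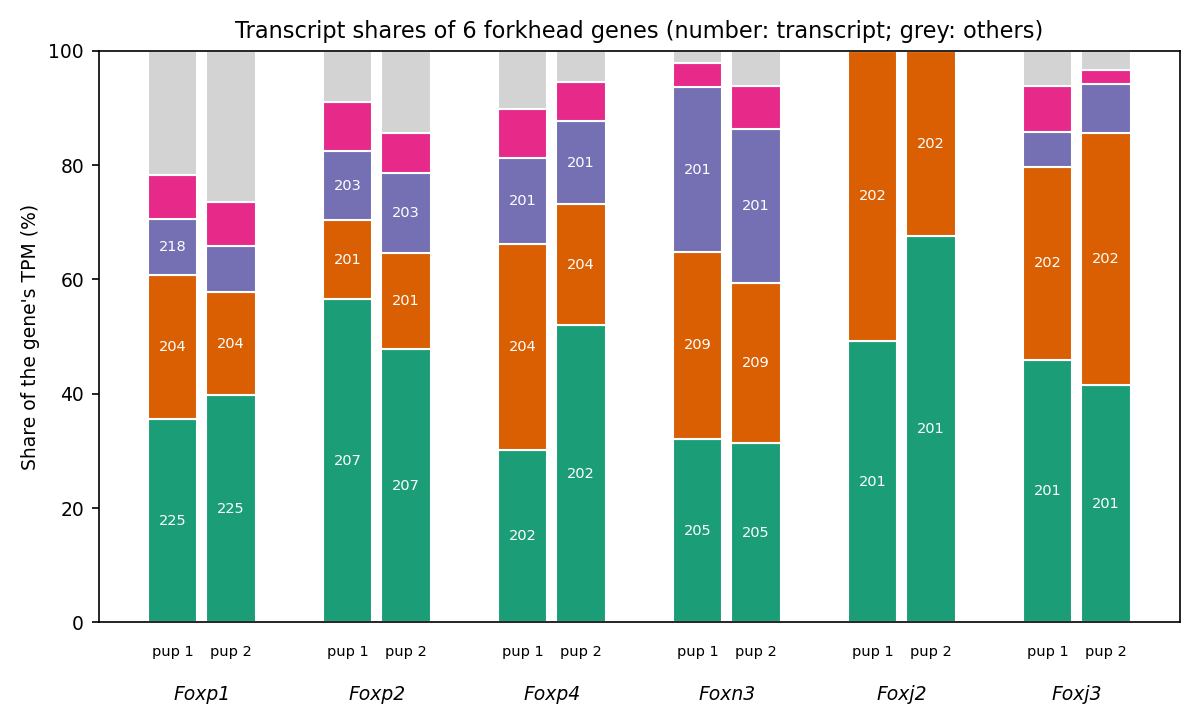
Share (percent) of each gene's TPM held by its 4 leading transcripts in pups 1 and 2 for 6 forkhead genes, with the transcript number in the bar and all other transcripts in grey. Foxp4-202 goes from 30.2% in pup 1 to 52.0% in pup 2, and Foxj2-201 from 49.2% to 67.5%.

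Pairs of transcripts were picked for comparison of coding sequence in 3 genes, and the other genes were not searched. The search was for coding bases of a transcript that its partner lacks, and not the reverse. In each of the 3 genes a transcript has a longer coding stretch that its partner lacks. It is printed here in capitals with 12 bases of flanking coding sequence on each side of the mature transcript. The coordinates are those of the capitals, on mm10.
Foxj3 exon of 102 bases (chr4:119609990-119610091, plus strand): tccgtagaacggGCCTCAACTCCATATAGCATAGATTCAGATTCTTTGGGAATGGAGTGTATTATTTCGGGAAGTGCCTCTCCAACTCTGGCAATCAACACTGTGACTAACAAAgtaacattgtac
Foxp4 stretch of 36 bases (chr17:47875689-47875724, minus strand): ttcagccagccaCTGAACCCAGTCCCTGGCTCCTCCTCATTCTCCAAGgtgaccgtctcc
Foxp1 stretch of 96 bases (chr6:99075950-99076045, minus strand): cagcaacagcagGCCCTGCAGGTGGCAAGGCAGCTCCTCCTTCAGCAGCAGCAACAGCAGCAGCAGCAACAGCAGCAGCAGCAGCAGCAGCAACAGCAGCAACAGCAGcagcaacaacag
The Foxj3 exon was in 57.7% of the TPM of the transcripts across it in pup 1 and 48.5% in pup 2, from Foxj3-201 and Foxj3-202. The Foxp4 stretch was in 18.6% and 16.5%. The Foxp1 stretch, rich in the glutamine codons CAG and CAA, was in 98.3% and 86.3%. Of the 4 transcripts across the place without it, Foxp1-206 held most of the TPM and went from 0.370 TPM in pup 1 to 3.29 TPM in pup 2, with intervals that overlapped. In Foxj2 the transcripts Foxj2-201 and Foxj2-202, of 5283 and 4620 bases, had shares of 49.2% and 50.8% in pup 1 and 67.5% and 32.5% in pup 2.

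Transcripts annotated as retaining an intron held 18.0% and 19.3% of the TPM of Foxm1 but 2.80% and 2.95% of its counts. In Foxp4 they held 15.8% and 12.3% of the TPM, in Foxj3 8.85% and 11.5% and in Foxp2 8.55% and 10.5%. In these 4 genes the share of counts in them was 2.26% to 7.51%.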

How the data were processed

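Total RNA-seq of whole stomach from 2 newborn pups gave 1 gene table and 1 transcript table each, on mm10 with GENCODE M4, per the text deposited with the tables. No aligner or counting program is named in the sources used here. The expected counts deposited by the authors are estimated reads. The TPM and FPKM that the authors deposited are scaled for length and depth, with TPM intervals (their bounds are a signal in TPM units, as deposited). The share of a transcript within its gene is in percent, as the authors deposited it.

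Symbols, positions and sequences came from GENCODE M21 (same assembly), matched on IDs without version for 42462 of 43346 Ensembl genes. Some transcript models changed between releases, and lengths are those deposited. Scaling used edgeR 4.0.16 (TMM) and DESeq2 1.42.0 in R 4.3.3 on counts rounded to whole numbers, from genes with a mean count of at least 10. No differential test was run, since there is 1 group of 2 pups. A count of 0 allows 3 counts, a CPM of 0.0582 in pup 1 and 0.0600 in pup 2.

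The members, the 19 companion gene lists and the rules were chosen with earlier results of these data known. Of the 199 list entries, 197 were found. Named were all detected members, members with at least 20 counts in both pups, the 3 highest genes of each list and list genes that differed 2-fold. Other genes were named after their values were seen. Likeness of pattern between genes was not computed over 2 libraries. Some genes and 1 sequence that these rules would name are not reported here.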

Additional observations from a re-analysis of the deposited data

How the results depend on the processing

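The number of forkhead genes detected was 16 with posterior mean TPM, with FPKM, with the longest transcript length and in each pup alone (16 to 16), 22 at a TPM of at least 0.1 and 8 at 5. The number higher in pup 2 was 0 with a mean count of at least 10, with Poisson intervals on TMM-scaled counts and with the median ratio set to 0, but 1 at 1.5-fold (Foxk2) and 5 with no fold limit. The number lower was 0 in each of these. The median log2 ratio of the detected genes, 0.14 as reported, was 0.0499 with TMM-scaled CPM, 0.0488 with DESeq2-scaled counts, 0.056 over all members with a count and 0.0752 with the longest transcript length, which was chosen after the data were seen. The scalings also replace TPM by reads without length, and the cause was not tested. Under TMM and DESeq2 scaling the ratio of Foxn3 was -0.04 in place of 0.14. Of the levels of 21 named genes, 7 moved by more than the spread between pups with the longest transcript length and 6 with posterior mean TPM. Genes with fewer than 100 counts, such as Foxe1, Foxo6, Foxc1, Foxc2 and Foxj1, are limited by depth. No paired analysis was possible because there is 1 group.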
